A study of Mus musculus with 24 samples.

Results

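The 9 efflux pump genes Abcb1a, Abcb1b, Abcc1, Abcc2, Abcc3, Abcc4, Abcc5, Abcc6 and Abcc10 were followed through 24 mouse kidneys. They were taken by symbol from a list of pumps of the ABCB and ABCC subfamilies, and their identifiers were found in the annotation of GRCm38. The rule used no measured value, although the list was drawn up with earlier results of these data known. All 9 were among the 55335 genes of the deposited count files, and all 9 were among the 16092 genes that were tested because they reached a level of 1 CPM (counts scaled to a fixed library total) in some kidney.

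The kidneys came from a study of the peroxisome in the renal tubule. Pex5, which encodes the receptor that brings most matrix enzymes into peroxisomes, was deleted in adult mice on the C57BL/6J background. Mice labelled Pex5lox/lox/Pax8-rtTA/LC1 were 8 weeks old when doxycycline (DOX) began. The drug was given over 2 weeks, and after its end 4 weeks passed before the kidneys were collected. Males of this genotype are called cKOm and females cKOf. Their littermate controls, Ctrlm and Ctrlf, carried Pex5lox/lox alone and received the same DOX. Each group had 6 mice, and whole-kidney RNA was sequenced. The Pax8 promoter confines the doxycycline-dependent activator to cells that use it, which in the kidney are tubule cells, while the RNA held every cell type of the organ. The controls lacked both transgenes, so an effect of Pex5 loss and one of the transgenes under DOX cannot be told apart.

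Between 19376152 and 28470831 reads were counted on genes per kidney. The targeted gene stood at 54.3 CPM ± 4.63 in Ctrlm and 43.7 CPM ± 1.94 in cKOm (SD, n = 6 each), and at 50.3 CPM ± 6.97 and 43.6 CPM ± 3.55 in Ctrlf and cKOf. Its log2 fold change was -0.31 in males (edgeR adjusted p = 0.0219) and -0.21 in females (edgeR adjusted p = 0.177), and the counts per gene do not separate the deleted exons from the rest. The paper found some remaining full-length Pex5 mRNA and PEX5 protein in cKOf. In its electron microscopy, peroxisomes of the proximal tubule were nearly gone in cKOm and in cKOf, and were counted in males only. For cKOf it proposes incomplete excision and does not exclude roles of peroxisomes that depend on sex. A difference between the sexes in the effect of genotype can therefore not be told apart from a difference in the extent of deletion. Markers of the kidney were abundant: 8 genes of the proximal tubule summed to at least 7991 CPM in every kidney. Markers of hepatocytes were highest in some controls. The 12 of them summed to 848 to 1317 CPM in Ctrlm replicates 1 to 4 and to 376 and 422 CPM in replicates 5 and 6. In cKOm they summed to 343 to 788 CPM, where replicate 4 came close to the lowest of those 4 controls, and in the females to 319 to 636 CPM. Much of the sum in every group was Apob (means of 288 to 333 CPM), while Alb had means of 322 CPM in Ctrlm, 62.0 CPM in cKOm and 31.4 and 37.1 CPM in Ctrlf and cKOf. Male results of the pumps are therefore given again without those 4 controls and with the hepatocyte level as a covariate.

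ABC transporters are membrane proteins that bind ATP at paired nucleotide-binding domains and use its hydrolysis to push a substrate across the membrane. In the proximal tubule they are the exit step of secretion: drugs, metabolites and their glutathione, glucuronide or sulfate conjugates enter the cell from blood through carriers such as the OATs and OCTs and leave into urine through pumps at the brush border. Pumps of the basolateral side work in the opposite sense and return substrates to the blood. Abcb1a and Abcb1b both encode P-glycoprotein, which in humans is the product of a single gene and exports lipophilic drugs. The ABCC members encode the multidrug resistance-associated proteins (MRPs), most of which export organic anions.

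All 9 genes carry the hallmark of the family in their coding sequence. The Walker A motif, the loop that holds the phosphates of ATP, had 2 in-frame matches in each of them, against 65 of 21817 protein-coding genes (0.298%) with at least 2 matches. The first match is shown for the 4 genes that rose in cKOm and for Abcb1a, the paralog of one of them, as read from GRCm38 with the fixed glycine and lysine codons in capitals. It lies in an exon of Abcb1a at chr5:8702207-8702230 and of Abcb1b at chr5:8824527-8824550 (both + strand), of Abcc3 at chr11:94363757-94363780 and of Abcc10 at chr17:46316592-46316615 (both - strand). That of Abcc4 spans an exon junction within chr14:118615320-118616386 (- strand).
Abcb1a: GGCaacagtGGCtgtGGAAAAagc
Abcb1b: GGCaacagtGGCtgtGGAAAAagc
Abcc3: GGAcctgtgGGCtgtGGGAAGtct
Abcc4: GGCccagttGGAgcaGGCAAGtcg
Abcc10: GGAaaggtgGGCtgtGGGAAGagt
Among the ABCC genes shown, the letters between the fixed codons differ in part, and Abcc3 and Abcc10 share some of them. In this first match those letters are the same in the Abcb1 pair.

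That likeness bears on how far their counts can be separated. Abcb1a (chr5:8660077-8748575, ENSMUSG00000040584) and Abcb1b (chr5:8798147-8866315, ENSMUSG00000028970) are neighbours on the + strand of chromosome 5. Their coding sequences were identical in 3365 of 3837 aligned columns (87.7%), and the longest shared run was 338 bases. A stretch of that run is shown because it holds the codons of the ABC signature motif, in capitals. It lies within 1 exon of each gene, at chr5:8702793-8702882 in Abcb1a and at chr5:8825113-8825202 in Abcb1b.
Abcb1a and Abcb1b: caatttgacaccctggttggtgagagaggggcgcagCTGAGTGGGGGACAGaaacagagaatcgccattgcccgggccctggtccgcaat
A read from such a stretch fits both genes. Of all windows of 50 bases in the transcript, 840 of 4948 in Abcb1a and 779 of 4257 in Abcb1b also occurred in another gene, mostly in the paralog, and of windows of 100 bases 7.72% and 8.72% did. A share of the reads of both genes could have been set aside or misplaced. Of the 7 ABCC members only Abcc2 shared any such window, 0.313% of those of 50 bases and none of 100. Short exonic overlaps with genes of the opposite strand existed for Abcb1a (Gm42686), Abcb1b (Gm5106) and Abcc10 (Dlk2). These partners held 8, 14 and 28 counts in all 24 kidneys together, and the strand setting of the counting is not given in the sources used here.

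The first comparison asked which pumps changed with the deletion in males. In cKOm kidneys 4 of the 9 members rose and none fell: Abcc3 4.05-fold, Abcb1b 2.70-fold, Abcc4 1.63-fold and Abcc10 1.39-fold. Of all genes tested 9.05% passed in either direction and 4.14% rose. The median log2 fold change of the 9 members was 0.31, beside 0.0148 over all genes tested. Groups did not overlap for 2 members, both higher in cKOm, beside 3.69% of all genes that lay higher without overlap. In females no member passed in edgeR, limma-voom or DESeq2, where edgeR called 0.851% of all genes. At an unadjusted p under 0.05 edgeR found 3 members in females, Abcb1a, Abcc1 and Abcc3, each lower in cKOf, and 6.73% of all genes. In the following, CPM is scaled for library composition (TMM), values are the lowest, median and highest of 6 kidneys, errors are SD for groups and SE for log2 fold changes, adjusted p is edgeR's quasi-likelihood p after Benjamini-Hochberg adjustment over all genes, and the exact permutation test is two-sided, with 0.00216 as the smallest p that its 924 arrangements allow. Because whole kidney was sequenced, fewer cells of a type and less RNA per cell cannot be told apart.

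**Figure D1:**
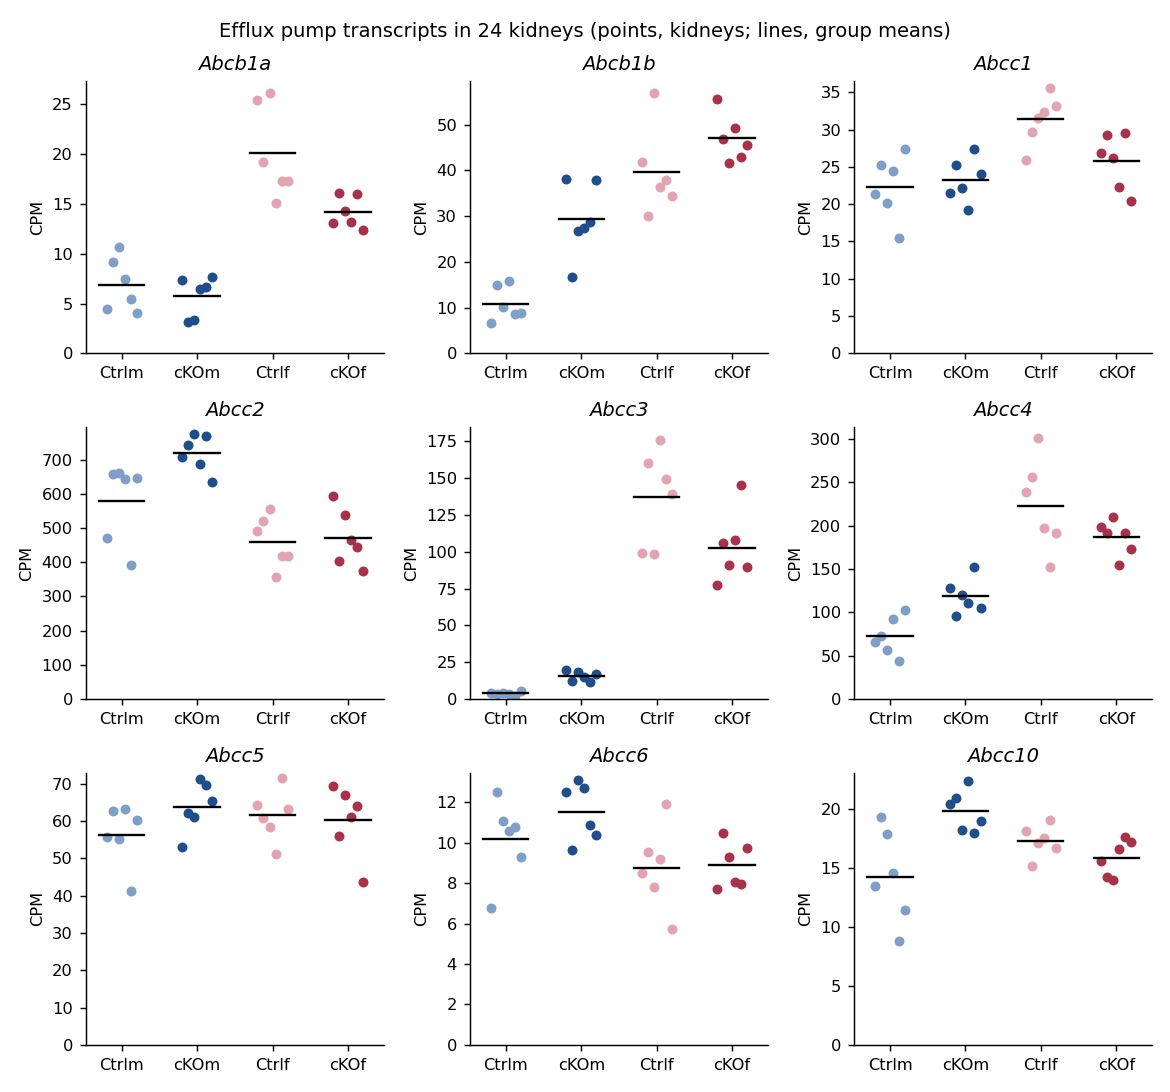
Normalised level of each of the 9 pumps in CPM (vertical axes, from 0) in the 24 kidneys. Points are kidneys, lines are group means of 6. The cKOm points of Abcc3 and Abcb1b lie wholly above those of Ctrlm, and in Abcb1a, Abcb1b, Abcc3 and Abcc4 all Ctrlm points lie below all Ctrlf points.

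Among pumps of the apical membrane, Abcb1b had the largest change with the deletion in males. It had 6.69, 9.44 and 15.7 CPM in Ctrlm and 16.6, 28.1 and 38.2 CPM in cKOm, and the groups did not overlap, although the gap between the highest control and the lowest cKOm kidney was small. The log2 fold change was 1.43 ± 0.20 (adjusted p = 1.6e-05, exact permutation p = 0.00216). In females Abcb1b had 30.0, 37.1 and 57.0 CPM in Ctrlf and 41.7, 46.2 and 55.5 CPM in cKOf. These ranges overlapped, and the log2 fold change was 0.25 ± 0.19 (adjusted p = 0.585). The male change differed from the female one by 1.18 ± 0.27 on the log2 scale (adjusted p of the interaction = 0.0128), where 2.31% of all genes showed an interaction. Without the 4 controls rich in hepatocyte transcripts the male log2 fold change was 1.72 (adjusted p = 3.5e-04), and with the hepatocyte level as a covariate it was 1.49 (adjusted p = 4.2e-04).

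Its paralog Abcb1a did not pass in either sex. Abcb1a had 4.04, 6.46 and 10.7 CPM in Ctrlm and 3.11, 6.60 and 7.66 CPM in cKOm, with a log2 fold change of -0.25 ± 0.23 (adjusted p = 0.673) whose sign turned with the hepatocyte covariate (0.07) and without the 4 controls (0.26). In females it had 15.1, 18.2 and 26.2 CPM in Ctrlf and 12.4, 13.7 and 16.1 CPM in cKOf. The ranges overlapped at their edges, and the log2 fold change of -0.50 ± 0.22 did not pass (adjusted p = 0.241, exact permutation p = 0.00649, which is not adjusted). It passed only when the female kidneys were fitted alone (adjusted p = 0.046).

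The balance within the P-glycoprotein pair was therefore looked at in each kidney, a measure chosen after the values had been seen and given without a test. Abcb1b CPM divided by Abcb1a CPM was 0.949 at the lowest, 1.61 at the median and 2.16 at the highest in Ctrlm, against 4.23, 5.08 and 8.09 in cKOm. In females the ratio was 1.56, 2.08 and 2.40 in Ctrlf and 2.68, 3.28 and 4.25 in cKOf. No cKO kidney had a ratio as low as any control of its sex, in males or in females. The mean log2 ratio was 0.68 ± 0.43 for Ctrlm and 2.38 ± 0.34 for cKOm, and 0.98 ± 0.25 for Ctrlf and 1.73 ± 0.26 for cKOf. The difference between genotypes stayed within 1.55 to 1.79 in males and 0.68 to 0.81 in females when each kidney was left out in turn. The ratio does not depend on the scaling of libraries, but reads misplaced between the paralogs could alter it.

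**Figure D2:**
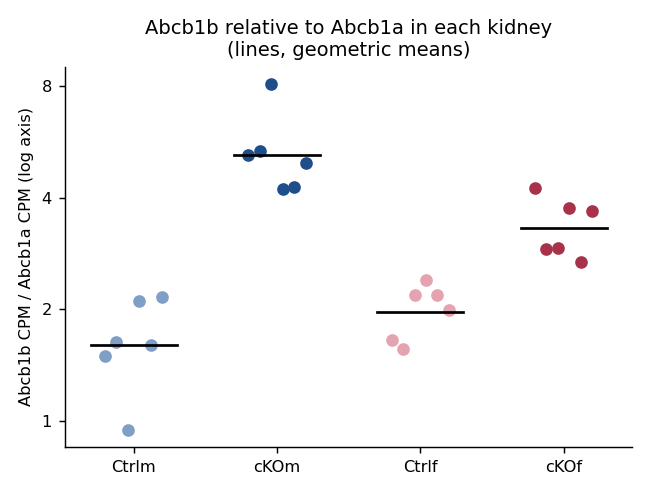
Abcb1b CPM divided by Abcb1a CPM in each of the 24 kidneys (log axis), with geometric means of 6 kidneys as lines. Ratios of cKOm (4.23 to 8.09) lie above those of Ctrlm (0.949 to 2.16), and ratios of cKOf (2.68 to 4.25) above those of Ctrlf (1.56 to 2.40).

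Abcc4 encodes MRP4, a brush-border pump for organic anions such as urate and cyclic nucleotides. It had 44.0, 69.6 and 103 CPM in Ctrlm and 95.9, 115 and 152 CPM in cKOm. The groups overlapped at the edge, the log2 fold change was 0.71 ± 0.17 (adjusted p = 0.00854), and the exact permutation p was 0.00433. In females the values were 152, 218 and 301 CPM in Ctrlf and 155, 191 and 210 CPM in cKOf, with a log2 fold change of -0.26 ± 0.16 (adjusted p = 0.492). The difference between the sexes was 0.96 ± 0.23 (adjusted p = 0.0209). Neither call for Abcc4 held when the hepatocyte transcripts were taken into account. The male log2 fold change was 0.66 without the 4 controls, which leaves 2 (adjusted p = 0.185), and 0.65 with the hepatocyte covariate (adjusted p = 0.0941), and the interaction was 0.92 (adjusted p = 0.110) and 0.91 (adjusted p = 0.0825).

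Abcc2, which encodes MRP2, the apical pump for glutathione and glucuronide conjugates, was the most abundant member. It had 393, 643 and 660 CPM in Ctrlm and 634, 726 and 775 CPM in cKOm, and 4 of the controls lay together near the top of their range. The log2 fold change of 0.31 ± 0.13 did not pass (adjusted p = 0.193), whereas the unadjusted exact permutation p was 0.0108. It was 0.44 without the 4 controls (adjusted p = 0.249) and 0.29 with the covariate (adjusted p = 0.509). In females Abcc2 had 357, 455 and 556 CPM in Ctrlf and 375, 456 and 595 CPM in cKOf, with a log2 fold change of 0.03 ± 0.13 (95% interval -0.23 to 0.30).

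Of the pumps placed on the basolateral side, Abcc3 (chr11:94343295-94392997, - strand) changed most. It encodes MRP3, which returns glucuronides and bile salts to the blood. Ctrlm kidneys had 2.19, 3.89 and 5.18 CPM, from 42 to 109 counts, and cKOm kidneys had 11.3, 15.9 and 19.6 CPM, from 253 to 431 counts. Every cKOm kidney lay more than 6 CPM above every control. The log2 fold change was 2.02 ± 0.20 (adjusted p = 7.6e-08, exact permutation p = 0.00216), the largest among the members. It was 2.04 without the 4 controls (adjusted p = 5.6e-04) and 2.16 with the hepatocyte covariate (adjusted p = 1.2e-06).

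In females Abcc3 stood on another level altogether, with 98.4, 144 and 176 CPM in Ctrlf and 77.3, 98.4 and 145 CPM in cKOf. These ranges overlapped, and the log2 fold change of -0.41 ± 0.17 did not pass (adjusted p = 0.189, exact permutation p = 0.0649). The difference between the sexes was 2.43 ± 0.26 on the log2 scale (adjusted p = 1.7e-06), the largest interaction among the members. Even after the male rise, the highest cKOm kidney (19.6 CPM) was far below the lowest female kidney (77.3 CPM).

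Abcc1, Abcc5 and Abcc6 did not pass in either sex. Abcc1 encodes MRP1, an exporter of leukotriene C4 and glutathione conjugates, and had 22.4 CPM ± 4.26 in Ctrlm against 23.2 CPM ± 2.94 in cKOm, and 31.4 CPM ± 3.31 in Ctrlf against 25.7 CPM ± 3.71 in cKOf. Its log2 fold change was 0.05 in males (95% interval -0.19 to 0.30) and -0.29 in females (95% interval -0.53 to -0.04, adjusted p = 0.212). Abcc5 encodes MRP5, an exporter of cyclic nucleotides, and had 56.3 CPM ± 8.13, 63.7 CPM ± 6.67, 61.5 CPM ± 6.73 and 60.2 CPM ± 9.36 in the same order of groups. The intervals of its log2 fold change were -0.05 to 0.40 in males and -0.26 to 0.19 in females. Abcc6, whose loss causes ectopic calcification in humans and mice, had 10.2 CPM ± 1.96, 11.5 CPM ± 1.40, 8.78 CPM ± 2.05 and 8.89 CPM ± 1.14, with intervals of -0.13 to 0.48 and -0.29 to 0.32. Without the 4 controls the male log2 fold changes of Abcc1, Abcc5 and Abcc6 were 0.08, 0.30 and 0.16, with the covariate they were -0.09, 0.18 and 0.22, and none passed.

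Abcc10 encodes MRP7, a broad exporter known for resistance to taxanes. It had 8.82, 14.02 and 19.3 CPM in Ctrlm and 18.03, 19.7 and 22.4 CPM in cKOm. The cKOm kidneys were close together, and 1 control reached into their range. The male log2 fold change was 0.47 ± 0.13 (adjusted p = 0.0289, exact permutation p = 0.0152). This call was the least secure of the 4: the adjusted p lay between 0.0539 and 0.103 without any one of Ctrlm replicates 1, 5 and 6 or cKOm replicates 1, 2 and 4. Without the 4 controls rich in hepatocyte transcripts the log2 fold change was larger, 0.94 (adjusted p = 2.6e-04), and with the covariate it was 0.75 (adjusted p = 0.00220). Leaving out the 4 kept only Ctrlm replicates 5 and 6, the 2 lowest controls for Abcc10 at 8.82 and 11.4 CPM. The controls left out had 13.5 to 19.3 CPM. In females Abcc10 had 15.2, 17.3 and 19.1 CPM in Ctrlf and 14.04, 16.1 and 17.6 CPM in cKOf, with a log2 fold change of -0.12 ± 0.13 (adjusted p = 0.725). The difference between the sexes, 0.60 ± 0.18, did not pass with all kidneys (adjusted p = 0.0895). It was 1.07 (adjusted p = 7.8e-04) without the 4 controls, 0.87 (adjusted p = 0.00853) with the covariate and 0.71 (adjusted p = 0.0224) without Ctrlm replicate 2.

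**Figure D3:**
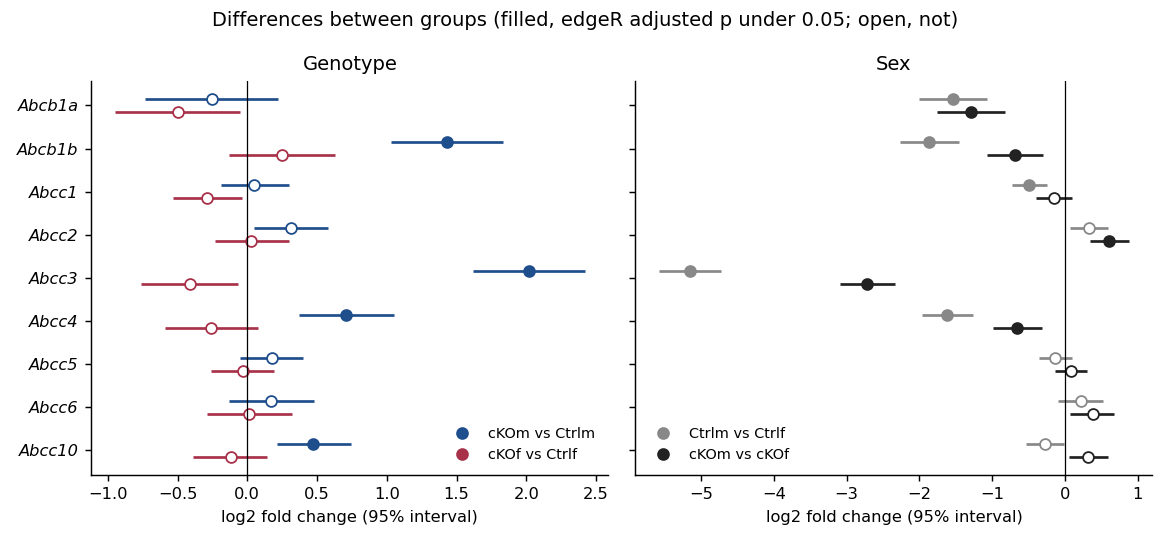
Log2 fold changes of the 9 pumps with 95% intervals, for genotype (left) and sex (right). Filled points passed an edgeR adjusted p of 0.05 and open points did not. In the left panel only males have filled points, for Abcb1b, Abcc3, Abcc4 and Abcc10, and in the right panel the Ctrlm vs Ctrlf and cKOm vs cKOf values of Abcc3 are the lowest, at -5.15 and -2.72.

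A further comparison set the sexes side by side within each genotype. It used the same kidneys as the genotype comparisons, so its values are not independent of theirs. In controls 5 members were lower in males and none was higher, where 15.7% of all genes differed and 7.48% were lower in males. Abcc3 was 35.5-fold lower in Ctrlm than in Ctrlf (log2 fold change -5.15 ± 0.21, adjusted p = 2.0e-16), Abcb1b 3.64-fold, Abcc4 3.07-fold and Abcb1a 2.91-fold. For these 4 every male control lay below every female control, beside 3.40% of all genes. Abcc1 was 1.40-fold lower with overlapping groups (adjusted p = 0.0061), and did not pass without the 4 controls (adjusted p = 0.0734) or with the hepatocyte covariate (adjusted p = 0.286). Abcc10 did not pass with all kidneys (log2 fold change -0.28, adjusted p = 0.18). It did without the 4 controls (-0.75, adjusted p = 7.4e-04), with the covariate (-0.63, adjusted p = 0.0111) and without Ctrlm replicate 2 (-0.39, adjusted p = 0.0413). The 2 male controls kept without those 4 were the lowest of their group for Abcc10. Abcc2 was 1.26-fold higher in Ctrlm and did not pass (adjusted p = 0.0931), and its log2 fold change of 0.33 became 0.42 without Ctrlm replicate 5 (adjusted p = 0.0179), 0.20 without the 4 controls (adjusted p = 0.558) and 0.37 with the covariate (adjusted p = 0.229).

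Among the cKO mice 5 members differed between the sexes, 4 lower and 1 higher in males, where 9.72% of all genes differed, 4.92% lower and 4.80% higher. Abcc3 was still 6.57-fold lower in cKOm than in cKOf (adjusted p = 9.9e-12), Abcb1b 1.60-fold (adjusted p = 0.0145) and Abcc4 1.57-fold (adjusted p = 0.00745). Abcb1a, which had not passed with the deletion, was 2.45-fold lower (adjusted p = 1.9e-04). Abcc2 was 1.53-fold higher in cKOm (log2 fold change 0.61 ± 0.13, adjusted p = 0.00135), and all 6 cKOm kidneys lay above all 6 cKOf kidneys. Groups also did not overlap for Abcc10, higher in cKOm, though its log2 fold change of 0.32 ± 0.13 did not pass (adjusted p = 0.11). Groups lay apart and higher in cKOm for 2 members and lower for 4, beside 3.53% and 3.24% of all genes.

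Levels can be compared between genes only per length, here as CPM per kilobase of all annotated exons of a gene, which understates genes whose long exon variants are little used. Abcc2 ranked first in every group, with 67.8 ± 13.6 CPM per kilobase in Ctrlm, 84.3 ± 6.36 in cKOm, and with 53.9 ± 8.77 and 55.1 ± 9.65 in Ctrlf and cKOf. Abcc4 came next in every group, at 11.3 ± 3.43 and 18.5 ± 3.12 CPM per kilobase in Ctrlm and cKOm and 34.9 ± 8.33 and 29.2 ± 3.04 in Ctrlf and cKOf. Its range lay apart from that of Abcc2 in 3 groups and overlapped with it in Ctrlf.

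The place of Abcc3 depended on sex and genotype. In Ctrlm it was the last of the 9, at 0.676 ± 0.178 CPM per kilobase, and its range overlapped with that of Abcb1a just above it. In cKOm it was the sixth, at 2.74 ± 0.580, among Abcb1b, Abcc10 and Abcc6, whose neighbouring ranges overlapped. In Ctrlf and cKOf it was the third, at 24.02 ± 5.61 and 18.03 ± 4.16 CPM per kilobase, and lay apart from the next gene below. Abcc5 was the third in males, at 5.27 ± 0.761 in Ctrlm and 5.96 ± 0.624 in cKOm, and lay apart from both neighbours there. Below it in Ctrlm, Abcc10, Abcc6, Abcc1, Abcb1b and Abcb1a each overlapped with the next in order, from 2.08 down to 1.26 CPM per kilobase.

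**Figure D4:**
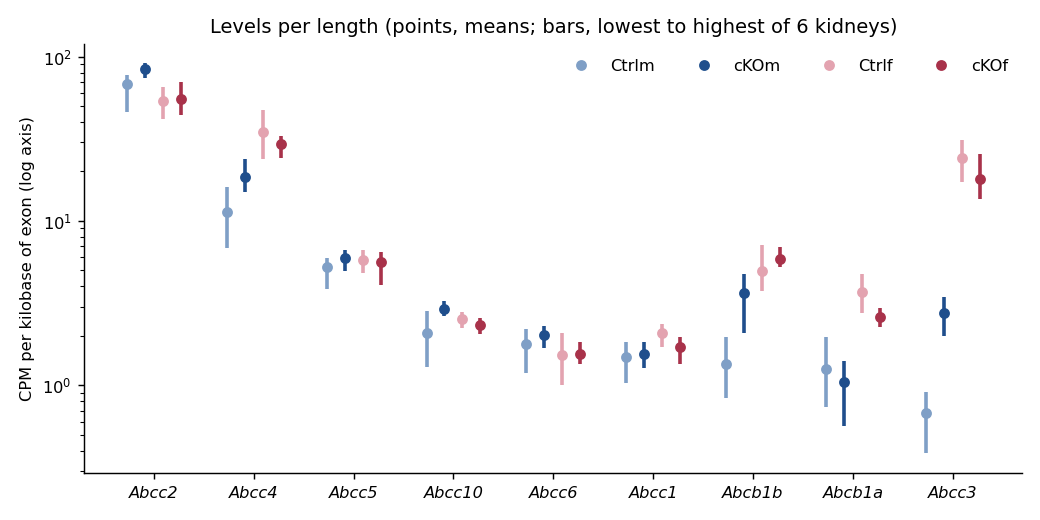
CPM per kilobase of annotated exon (log axis) for the 9 pumps in each group, in the order of the Ctrlm means. Points are means and bars run from the lowest to the highest of 6 kidneys. Abcc3 spans 0.676 in Ctrlm to 24.02 in Ctrlf, whereas the 4 means of Abcc5 lie between 5.27 and 5.96.

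For the 4 pumps that rose in cKOm, the genes with the most similar log2 CPM over the 24 kidneys were looked up among 14066 genes. Because the kidneys fall into 4 groups, Pearson's r mostly follows group differences, so the value after removing group means is given beside it. For Abcc3 these were Ugt1a2, a UDP-glucuronosyltransferase of the kind that makes the glucuronides MRP3 carries (0.97, and 0.11 without group means), Cdh6, a cadherin of the proximal tubule (0.96 and -0.04), and the potassium channel gene Kcnk1 (0.96 and 0.27). Little of the likeness to Abcc3 was left within groups. For Abcb1b they were the prolactin receptor gene Prlr (0.92 and 0.52), Asrgl1 (0.91 and 0.52) and Lrp8 (0.90 and 0.34). Abcc4 was closest to Kynu, an enzyme of tryptophan breakdown (0.93 and 0.59), to the pyridoxal kinase gene Pdxk (0.93 and 0.70) and to Lyplal1 (0.91 and 0.51). For Abcc10, Brd9, Ints7 and Rbm20 came first (0.84, 0.80 and 0.80), and 0.75, 0.69 and 0.66 remained without group means.

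Sequence upstream of the transcription start was at hand from RefSeq (GRCm38.p6) for 6 members, Abcb1a, Abcb1b, Abcc2, Abcc4, Abcc5 and Abcc10. The 250 bases before the RefSeq start, the first listed where there were more, are shown for the 3 of them that rose in cKOm. Every match to a searched motif is in capitals. Searched on both strands were the core of the antioxidant response element TGACNNNGC, the GC box GGGCGG, the CCAAT box CCAAT, the TATA box TATAAA and the repeat read by PPARα, AGGTCA followed by 1 free base and AGGTCA again. The windows are chr5:8797897-8798146 (+ strand) for Abcb1b, chr14:118706220-118706469 (- strand) for Abcc4 and chr17:46328024-46328273 (- strand) for Abcc10.
Abcb1b: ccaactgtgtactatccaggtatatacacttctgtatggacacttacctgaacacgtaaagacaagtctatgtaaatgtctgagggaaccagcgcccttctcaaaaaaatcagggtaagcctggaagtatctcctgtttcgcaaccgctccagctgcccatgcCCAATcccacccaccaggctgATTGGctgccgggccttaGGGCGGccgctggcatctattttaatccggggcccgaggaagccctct
Abcc4: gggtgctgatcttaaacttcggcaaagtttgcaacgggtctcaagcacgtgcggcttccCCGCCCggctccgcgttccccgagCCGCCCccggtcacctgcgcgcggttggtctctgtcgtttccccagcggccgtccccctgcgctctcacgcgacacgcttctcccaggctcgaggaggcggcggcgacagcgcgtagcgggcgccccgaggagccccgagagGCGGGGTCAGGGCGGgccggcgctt
Abcc10: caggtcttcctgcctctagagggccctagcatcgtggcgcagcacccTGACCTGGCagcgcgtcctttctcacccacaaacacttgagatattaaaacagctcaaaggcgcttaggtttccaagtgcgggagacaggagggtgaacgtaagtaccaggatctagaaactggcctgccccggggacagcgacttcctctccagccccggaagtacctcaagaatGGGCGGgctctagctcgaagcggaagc
Abcb1b held 2 CCAAT boxes, with first bases at -87 and -66 from the start, and a GC box at -48. Abcc4 held 3 GC boxes, the last at -16, directly after an antioxidant response core on the reverse strand that begins at -25 and shares no base with it, in a window of 72.0% GC. Abcc10 held an antioxidant response core at -203 and a GC box at -27. Abcc4 and Abcc10 each had another RefSeq start, whose windows are not shown. That of Abcc4 held a core at -23 and no GC box, and that of Abcc10 a GC box at -225 and no core. Of 32851 promoter windows of the same length, 10.2% held the antioxidant response core, 32.7% a GC box, 33.8% a CCAAT box, 12.4% a TATA box and 0.0335% the PPARα repeat. No TATA box or PPARα repeat was in the windows of the 6 members. Abcc2, which did not pass with the deletion, also held an antioxidant response core (-98), and the window of Abcc5 held none of the 5 motifs. The RefSeq window of Abcb1a, chr5:8566841-8567090, also held none, but it belongs to a start far upstream of the gene's start in the annotation used here, so it is not the sequence before the latter. The window shown for Abcc10 lies within the annotated gene (chr17:46303221-46328352), and that of Abcc2 runs into its gene. Neither is wholly sequence before the annotated start. A match is a run of letters, not a site shown to be bound.

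Other genes of the same transport system were counted from lists. Of 10 other tested ABCB and ABCC genes, among them the mitochondrial transporter genes Abcb8 and Abcb10 and the chloride channel gene Cftr, none passed in males or in females (median log2 fold change -0.11 in males, by edgeR). Their closest in males was Cftr, with 9.41 CPM in Ctrlm, 6.92 CPM in cKOm and an adjusted p of 0.0786. Of 8 genes listed as other exit transporters 5 fell in males and none rose (median -0.36), beside 4.90% of all genes that fell and 4.14% that rose. These were Slc22a12, the urate exchanger URAT1 of the brush border (794 to 390 CPM, log2 fold change -1.03, adjusted p = 3.3e-07), Slc17a3 and Slc17a1, anion carriers of the NPT family (697 to 349 CPM and 590 to 467 CPM, adjusted p = 3.5e-07 and 0.00446), Slc51a, a subunit of the bile-steroid carrier OSTα-OSTβ (-0.75, adjusted p = 0.0115), and Slc47a1, the cation exporter MATE1 (-0.37, adjusted p = 0.0037). Slc22a12 is counted in this list although its exchanger takes urate up from the lumen. Abcg2, the urate and drug pump BCRP, did not pass (-0.21, adjusted p = 0.0731).

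Of 7 genes listed as basolateral uptake carriers 4 fell in males and none rose (median -0.38). The membrane side of their proteins in these kidneys was not examined. Slc22a7, the organic anion transporter OAT2, went from 227 to 13.2 CPM (log2 fold change -4.10, adjusted p = 1.2e-09). Among the others, Slc22a6 (OAT1) and Slc22a2 (OCT2) had log2 fold changes of -0.65 and -0.56 (adjusted p = 4.2e-04 and 0.0043). With the hepatocyte covariate 3 of the 7 genes listed as uptake carriers and 5 of the 8 listed as exit transporters passed. In females none of either list passed. Slc22a6 is also 1 of the 8 proximal tubule markers, of which 4 passed lower in cKOm and 3, Slc5a12, Slc4a4 and Slc5a2, had positive log2 fold changes that did not pass (0.63, 0.13 and 0.10). The 8 markers summed to 9521 to 10851 CPM in Ctrlm and 7991 to 8956 CPM in cKOm, and their part in the pump and carrier results was not tested. Other markers also moved in males: 2 of 7 macrophage markers fell (summed means 141 CPM in Ctrlm and 99.0 CPM in cKOm), and 1 of 4 markers of the thick ascending limb, Slc12a1, rose (summed means 3841 and 4436 CPM). Of 4 intercalated cell markers Slc4a1 fell (-0.68, adjusted p = 0.00259) and Slc26a4 rose (0.47, adjusted p = 0.00686). Of 5 principal cell markers Scnn1b rose (0.35, adjusted p = 0.0103). With the hepatocyte covariate 2 proximal tubule, 2 intercalated cell and 1 principal cell markers passed in males. No macrophage or thick limb marker did. The part of these was not tested either.

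Of 14 sensors and regulators of such genes 2 rose in males and none fell (median 0.11). Nr1i2, which encodes the xenobiotic receptor PXR, went from 8.45 CPM in Ctrlm to 14.02 CPM in cKOm (log2 fold change 0.73, adjusted p = 3.2e-04), and the female groups had 14.04 and 14.05 CPM. Esr1, the estrogen receptor α gene, went from 18.5 to 26.2 CPM (0.50, adjusted p = 0.033). Its female groups lay below both, at 9.14 CPM in Ctrlf and 9.31 CPM in cKOf. Nfe2l2, which encodes NRF2, had 112 CPM in Ctrlm and 119 CPM in cKOm (adjusted p = 0.679). Of 10 tested target genes of NRF2 1 rose, Srxn1 (0.33, adjusted p = 0.00866), and 2 fell, Me1 (-0.73, adjusted p = 8.6e-07) and Gclm (-0.30, adjusted p = 0.0181), with a median of -0.24. Of 6 membrane scaffold and linker genes, Slc9a3r1 fell in males (-0.41, adjusted p = 0.0159) and Msn fell in females (-0.37, adjusted p = 0.0286). With each kidney of the comparison left out in turn, between 1 and 3 of the regulators, 2 and 3 of the NRF2 targets and 0 and 1 of the scaffold genes passed in males, and between 0 and 1 of the scaffold genes in females. With the hepatocyte covariate 2 regulators, 2 NRF2 targets and no scaffold gene passed in males, and no scaffold gene passed in females.

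**Figure D5:**
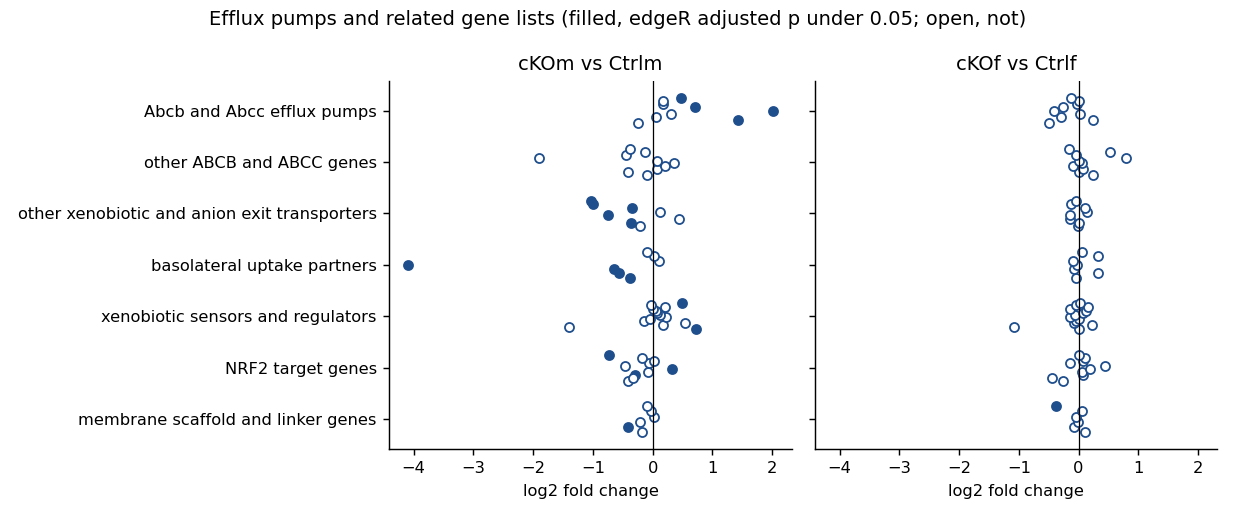
Log2 fold changes of cKO against control in males (left) and females (right), on the same axis, for the 9 pumps and 6 lists of related genes. Each point is a gene, filled where the edgeR adjusted p was under 0.05. In males the filled points of the pumps lie to the right of 0 and those of the exit and uptake carriers to the left, and in females the only filled point is Msn at -0.37.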

How the data were processed

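Whole-kidney RNA of 24 mice was sequenced from a stranded, poly(A)-selected kit. Per the submitters' processing notes, cutadapt 1.8, STAR 2.5.3a and HTSeq 0.9.1 were used with GRCm38. The authors deposited whole counts of reads per gene, 1 file per kidney, without normalization. Of 55335 genes 55154 were found in GENCODE M21 (GRCm38), used here for names, positions and lengths; 5 closing lines for uncounted reads were set aside.

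Counts were tested in R 4.3.3 with edgeR 4.0.16 (TMM, 1 model of 4 groups, quasi-likelihood tests). Genes entered if any kidney reached 1 CPM. P values were adjusted over the male and female tests together, over both tests between the sexes together, and, for the interaction, over all genes; the threshold was 0.05. limma 3.58.1 (voom) and DESeq2 1.42.0 were alternatives. Log2 CPM used a prior count of 2. Exact permutation tests used log2 CPM. The code was tested on simulated data. Python 3.11.15 served for all else, with matplotlib 3.10.9 for figures and pandas 2.3.3 for tables.

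The members and lists were chosen with earlier results of these data known. All members are described, and from other lists those past the threshold, with a few more named after their values were seen; some list genes are counted but not reported here by name. Kidneys of a group differed by more than sampling noise (chi-square per degree of freedom 9.24 to 91.1 over 60 pairs). Errors therefore come from the spread between mice, and p-values weigh a difference between groups against that spread. The labels give both ZT3 and ZT9 as the time of day. Depth limits Abcc3 in Ctrlm most. The 95% intervals are for the log2 fold change between groups and do not give the range of single kidneys.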

Additional observations from a re-analysis of the deposited data

Results flagged for a closer look

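Interactions of genotype and sex passed the threshold of edgeR's adjusted p for 3 members, beside 2.31% of all genes, and each is listed because its change differed between males and females by a direct test. That test cannot tell sex apart from the less complete deletion that the paper proposes for cKOf. The male log2 fold change exceeded the female one by 2.43 for Abcc3, by 1.18 for Abcb1b and by 0.96 for Abcc4. That of Abcc4 did not pass with the hepatocyte covariate (edgeR adjusted p = 0.0825), without the 4 controls high in hepatocyte markers (0.110) or with the replicate block (0.0524). The male groups of Abcc3 and Abcb1b did not overlap, whereas their female groups did.

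Abcc5 in Ctrlm replicate 5 stood at 41.2 CPM, apart from the other 5 male controls by 0.683 of the range of the group on the log2 scale. This was the only such value among 36 combinations of member and group, and chance alone would mark about 1 in 20. The same kidney was the lowest of its group for 6 of the 9 members. It was 1 of the 2 male controls low in hepatocyte markers.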

How the results depend on the processing

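The labels' replicate numbers did not pair kidneys, which came from different mice: same-numbered kidneys correlated from -0.0584 to 0.118 between Ctrlm and cKOm and from -0.199 to 0.0847 between Ctrlf and cKOf. With the replicate number as a block 3 members passed in males, where Abcc10 was lost (adjusted p = 0.0538), and 0 in females. In the interaction 2 passed, where Abcc4 was lost (adjusted p = 0.0524), and 5 passed in each comparison of the sexes. Of the 16092 genes tested, the block called 1268 in males, 110 in females and 271 in the interaction. It called 2243 between Ctrlm and Ctrlf and 1339 between cKOm and cKOf.

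Over the alternatives, 3 to 4 members rose in males, and Abcc3 and Abcb1b passed in each. Abcc10 did not pass in males with every gene with a count tested (adjusted p = 0.0636) or with males fitted alone (adjusted p = 0.113). In females 1 member, Abcb1a (log2 fold change -0.51), passed when females were fitted alone. DESeq2 called Abcc2 higher in Ctrlm than in Ctrlf (0.35, adjusted p = 0.0415), and the fit of the cKO kidneys alone called Abcc6 (0.37, adjusted p = 0.0448) and Abcc10 (0.32, adjusted p = 0.0264) higher in cKOm. The causes were not tested.

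Signs turned only for values that did not pass. In males they were Abcb1a with the hepatocyte covariate (0.0676) and without the 4 controls high in hepatocyte markers (0.26), a setting chosen after seeing the data, and Abcc1 with the covariate (-0.092) and, over kidneys left out in turn, -0.031 to 0.103. In females, with kidneys left out in turn, Abcc2 ranged from -0.046 to 0.094, Abcc5 from -0.090 to 0.045 and Abcc6 from -0.082 to 0.127.

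Among all genes, 1456 passed in males, against 789 with the covariate and 735 without the 4 controls. In females 137 passed, or 43 when adjusted alone. The interaction was called for 372 genes, 574 with DESeq2 and 234 with the covariate. Between Ctrlm and Ctrlf 2519 differed, 1464 with the covariate and 1588 without the 4 controls. The share of rises in males was 45.8%, 35.7% with every gene with a count and 30.6% without the 4 controls.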
